A study of Mus musculus with 8 samples.

Results

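The mitochondrial ribosomal protein genes were taken as the genes of the count table whose symbol begins with Mrpl or Mrps followed by a digit. They numbered 76 of 23336 genes in the table. By symbol, 47 Mrpl genes were assigned to the large subunit of the mitochondrial ribosome and 29 Mrps genes to the small subunit. All 76 passed the filter on low counts, with mean counts over the libraries of 70 to 1359.5 and a lowest single count of 38, that of Mrps6 in ΔDMR1-U2 library 2.

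Total RNA depleted of ribosomal RNA was sequenced from skeletal muscle of female C57BL/6 mice at postnatal day 2. One group of 4 libraries carried the deltaDMR1-U2 genotype (ΔDMR1-U2), a deletion at the imprinted Igf2 locus, and the other group of 4 was wild-type at this locus. The parent from which the deletion came and its coordinates were not stated in the labels. Libraries are named 1A, 1B, 2 and 3 in each group. The series' design speaks of 4 mice of each genotype, but the labels do not say how libraries 1A and 1B relate to each other, so the p-values measure only the spread between these libraries.

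Mitochondria keep a ribosome of their own, which descends from that of bacteria and makes the membrane subunits of the respiratory chain that the mitochondrial genome encodes. Its RNAs come from the mitochondrial genome, while its proteins are encoded in the nucleus, made in the cytosol and imported. The large subunit joins amino acids and carries the exit channel for the new protein. The small subunit reads the messenger RNA. Many of the proteins have a counterpart in the bacterial ribosome and the others were gained in mitochondria. In skeletal muscle, where contraction draws on oxidative metabolism, loss of mitochondrial translation is known to cause disease.

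Sequence around the start of transcription is shown for 4 members on which the results turn: Mrpl49 and Mrps7, which had the smallest p of the large and the small subunit, Mrpl12, which had the largest difference, and Mrpl23, whose libraries were higher in ΔDMR1-U2 without overlap. Each runs from 170 bases before to 30 bases after the start given by RefSeq for build GRCm38.p6, 5′ to 3′ on the gene's strand. Capitals mark letters that a set of factors known at promoters of nuclear genes for mitochondrial proteins can bind: GCGC, any base and TGCGC for NRF1, CCGGAAG for ETS factors such as GABP, AAGATGGC for YY1 and GGGCGG for SP factors, each on either strand. The windows lie at chr19:6057726-6057925 on the minus strand for Mrpl49, chr11:115603970-115604169 on the plus strand for Mrps7, chr11:120484467-120484666 on the plus strand for Mrpl12 and chr7:142532862-142533061 on the plus strand for Mrpl23.
Mrpl49: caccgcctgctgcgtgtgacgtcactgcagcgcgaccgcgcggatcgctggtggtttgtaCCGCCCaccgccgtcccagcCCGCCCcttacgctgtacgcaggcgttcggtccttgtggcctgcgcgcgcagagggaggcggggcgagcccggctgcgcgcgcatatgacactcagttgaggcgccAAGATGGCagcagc
Mrps7: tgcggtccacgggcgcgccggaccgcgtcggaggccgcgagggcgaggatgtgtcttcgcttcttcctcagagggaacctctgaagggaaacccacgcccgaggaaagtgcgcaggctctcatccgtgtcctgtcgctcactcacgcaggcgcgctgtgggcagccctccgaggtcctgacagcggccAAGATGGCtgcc
Mrpl12: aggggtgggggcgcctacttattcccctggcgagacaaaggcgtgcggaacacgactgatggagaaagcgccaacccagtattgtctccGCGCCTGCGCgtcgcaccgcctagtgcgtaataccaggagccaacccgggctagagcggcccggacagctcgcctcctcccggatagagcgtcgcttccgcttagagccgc
Mrpl23: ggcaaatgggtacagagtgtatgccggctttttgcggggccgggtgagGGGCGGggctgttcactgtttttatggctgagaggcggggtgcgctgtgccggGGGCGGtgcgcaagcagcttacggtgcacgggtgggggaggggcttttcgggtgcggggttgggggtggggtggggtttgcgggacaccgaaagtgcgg
In Mrpl49 and Mrps7, the AAGATGGC letters lay just after the RefSeq start, at bases 17 to 24 and 19 to 26 counted from it. In the GENCODE annotation all 4 genes begin further upstream. Mrps7 begins at 115603925 and Mrpl23 at 142532686, before their windows open, so positions depend on the start taken. The AAGATGGC letters also contain ATG, and whether translation starts there was not examined. Mrpl12 held the NRF1 letters 81 to 72 bases before its start, and Mrpl23 held SP letters alone. A match is a description of letters and not of binding.

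The check of the deletion came from Igf2as, the gene antisense to Igf2, which stood at 6.18, 5.55, 5.97 and 6.02 CPM (counts rescaled by the library size after TMM scaling) in the ΔDMR1-U2 libraries, in the order 1A, 1B, 2 and 3, and at 72.2, 71.5, 55.7 and 54.4 CPM in the wild-type libraries in the same order. The libraries held 16084413 to 26913636 counts, with a biological coefficient of variation of 12.3%. Xist, which marks an inactive X chromosome, stood at 2.50 CPM in ΔDMR1-U2 library 1A against 1270 to 1895 CPM in the other 7 libraries, although all are labelled female. The 7 white adipocyte markers summed to 602 CPM in ΔDMR1-U2 library 1B and to 179 to 266 CPM in the other libraries. The 4 bone and cartilage markers summed to 37.5 CPM in ΔDMR1-U2 library 3 and 55.9 CPM in wild-type library 1A. In the other libraries they ran from 354 to 1272 CPM. The 4 fibroblast markers summed to 4612 to 6676 CPM in ΔDMR1-U2 and 5847 to 10037 CPM in wild-type, with overlap. All 8 muscle fibre markers were detected and summed to 161019 to 181170 CPM in ΔDMR1-U2, against 176519 to 208007 CPM in wild-type. The 4 Schwann cell markers summed to 101 to 161 CPM in ΔDMR1-U2, against 43.7 to 91.0 CPM in wild-type, with no overlap, and none was called. Of 12 marker lists, only the brown adipocyte list had a called gene, 1 of 4 tested that was higher, while its summed levels ran from 77.3 to 89.3 CPM in ΔDMR1-U2, against 76.2 to 91.7 CPM in wild-type. Among defining markers, the red blood cell genes Hba-a2, Hbb-b1 and Hbb-b2 were at 0 in every library. The 7 red blood cell markers still summed to 25.96 to 59.1 CPM in ΔDMR1-U2 and 38.1 to 90.2 CPM in wild-type, with overlap. The genes at 0 thus do not show that blood RNA was absent. The part of these differences in the results that follow was not tested.

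The first comparison asked how genes of the mitochondrial ribosome compared between mutant and wild-type muscle. Most had a lower mean in ΔDMR1-U2: 68 of 76 had a negative log2 fold change, 41 of 47 of the large and 27 of 29 of the small subunit. The differences were small, with a median of -0.16 on the log2 scale, or -10.3%, and a range from -0.58 for Mrpl12 to 0.14 for Mrpl23. Over all 15241 genes tested the median was -0.00104, and 50.2% of genes had a negative value. In bulk tissue, fewer cells of a type and less RNA per cell cannot be told apart.

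No single member passed the test. With edgeR's quasi-likelihood test and Benjamini-Hochberg adjustment over all genes, 0 of 76 members had an adjusted p under 0.05, where 0.617% of all genes were called lower and 0.512% higher. At an unadjusted p under 0.05, 25 members were lower, 13 of the large and 12 of the small subunit, and 0 were higher, beside 10.9% and 10.4% of all genes. Scaled by total library size, which moved the median of all genes to 0.05, 13 members were lower at that p. Without ΔDMR1-U2 library 1B, and likewise without wild-type library 1A, 15 were. The share of all genes lower at that p was not computed under these settings, so these counts have no background beside them. The 4 ΔDMR1-U2 values lay below all 4 wild-type values in 15 members, 6 of the large and 9 of the small subunit, and above them in 1, beside 6.38% and 6.4% of all genes.

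Other tests called a few members. DESeq2 called Mrpl12, Mrpl14, Mrpl37, Mrpl49, Mrps7, Mrps10 and Mrps11 lower, 7 of 76, in a fit that called 962 genes in all, 3.37% of those with an adjusted p lower and 3.07% higher. Scaling by the upper quartile, or keeping genes with low counts, let edgeR call Mrpl49, 1 of 76. These fits called 1.21% and 1.19% of all genes tested, in either direction. Without ΔDMR1-U2 library 2, edgeR called Mrpl49, Mrps7 and Mrps11 lower, 3 of 76. That fit called 631 genes in either direction, 4.10% of those tested, against 172 with the 8 libraries. In the authors' deposited table, 0 members had an adjusted p-value under 0.05, where 0.609% of the 20187 genes with a value were lower in ΔDMR1-U2 and 0.277% higher, and the smallest was 0.101, for Mrpl49.

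**Figure D1:**
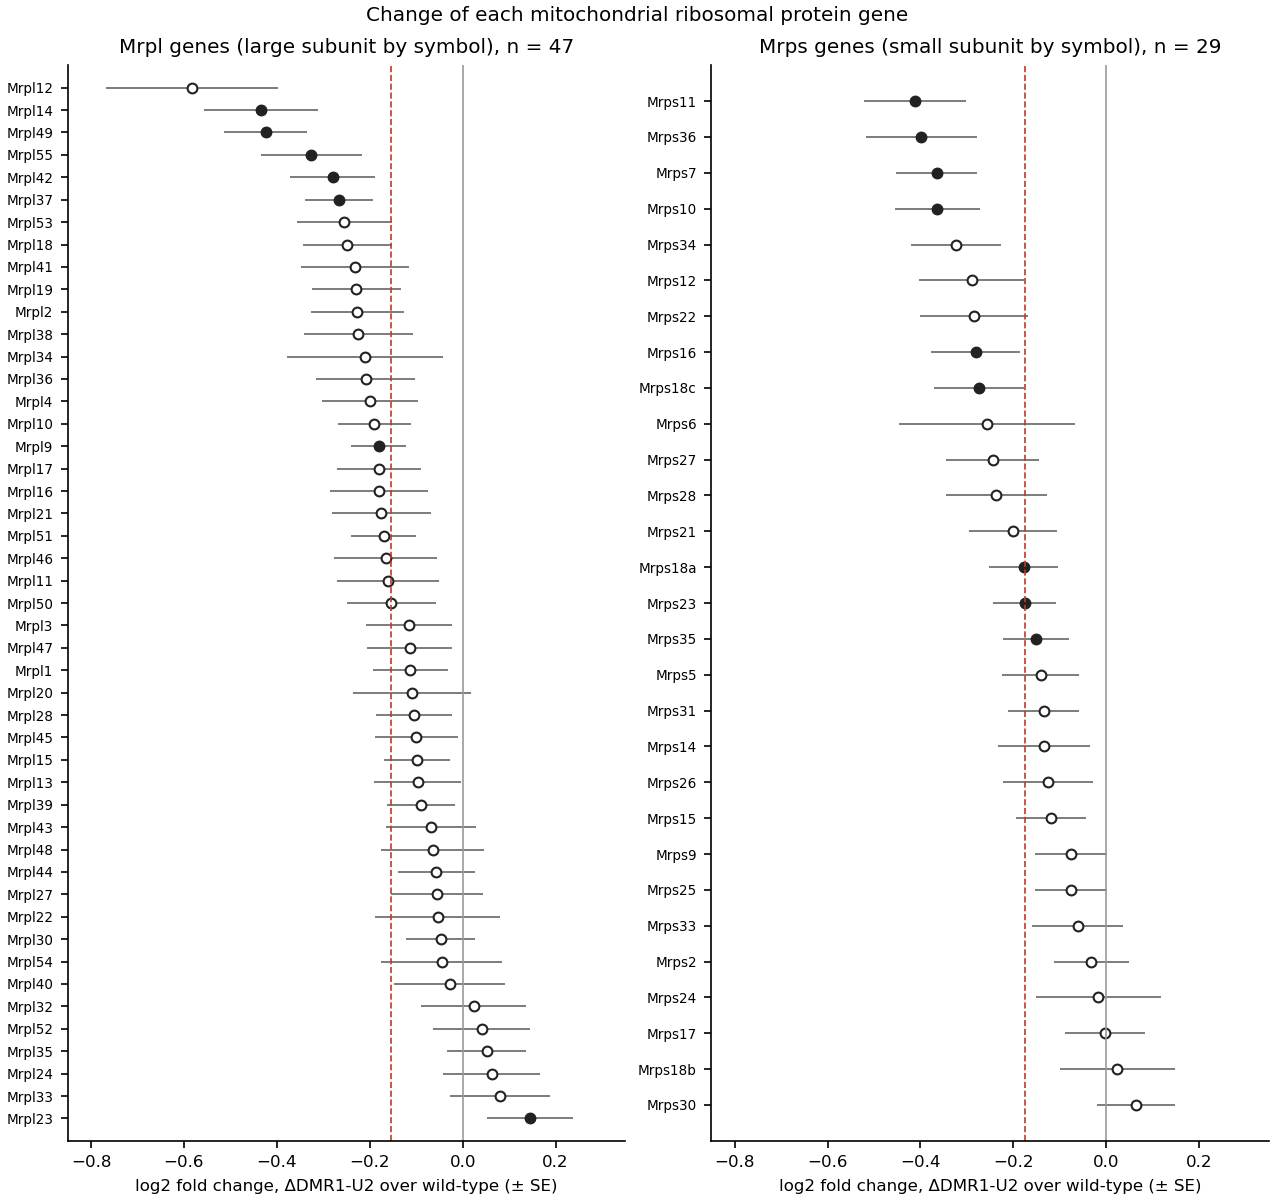
Log2 fold change of ΔDMR1-U2 over wild-type (x axis) for each of the 47 Mrpl genes (left) and 29 Mrps genes (right), with bars for the standard error of the edgeR fit. Filled points are members whose 4 ΔDMR1-U2 and 4 wild-type values did not overlap, open points are the others, and the dashed line is the median of each subunit, -0.15 for large and -0.18 for small.

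The second comparison set the large against the small subunit. The median log2 fold change was -0.15 over the 47 large subunit genes and -0.18 over the 29 small subunit genes, a difference of 0.022. For each library, the median over a subunit's genes of the log2 CPM minus the gene's wild-type mean gave a single position. For the large subunit these positions were -0.09, -0.18, -0.07 and -0.22 in ΔDMR1-U2 (libraries 1A, 1B, 2 and 3 in turn) and 0.09, 0.04, -0.10 and -0.04 in the wild-type libraries. ΔDMR1-U2 libraries 1A and 2 lay above wild-type library 2, so the groups overlapped. For the small subunit the positions were -0.13, -0.22, -0.13 and -0.21 in ΔDMR1-U2 and 0.10, 0.02, -0.08 and -0.05 in wild-type, and the groups did not overlap. Within a library, the large minus the small position was 0.04, 0.03, 0.05 and -0.01 in ΔDMR1-U2 and -0.0031, 0.01, -0.02 and 0.01 in wild-type. The 2 ranges overlapped, with means of 0.029 ± 0.028 and 0.000030 ± 0.016 (SD, n = 4), so a difference between the subunits was not resolved from the spread between libraries. Without ΔDMR1-U2 libraries 1A and 1B together, the medians were -0.13 for large and -0.14 for small subunit genes, 69 of 76 members had negative values and 0 were called by edgeR.

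Summed levels, on the TMM-scaled CPM scale, separated the groups in both subunits. Large subunit genes together took 1018 to 1126 CPM in ΔDMR1-U2, against 1133 to 1271 CPM in wild-type, and small subunit genes 507 to 549 CPM and 558 to 628 CPM, with no overlap in either. Per kilobase of messenger RNA, the mean level over the large subunit genes was divided by the mean level over the small subunit genes. This ratio was 1.388, 1.345, 1.356 and 1.3242 in ΔDMR1-U2, with a mean of 1.35 ± 0.027 (SD, n = 4). In wild-type it was 1.3238, 1.312, 1.323 and 1.286, with a mean of 1.31 ± 0.017. The ratio was thus higher in all 4 ΔDMR1-U2 libraries, but library 3 stood above wild-type library 1A only in the fourth decimal. The separation of the sums depended on the TMM scaling. As an unscaled share of all counts, the members together made up 0.171%, 0.157%, 0.167% and 0.154% in the ΔDMR1-U2 libraries and 0.182%, 0.183%, 0.168% and 0.166% in the wild-type libraries. ΔDMR1-U2 library 1A lay above wild-type libraries 2 and 3, and ΔDMR1-U2 library 2 above wild-type library 3, so the unscaled shares overlapped. The muscle fibre markers, given above, were also lower in mean in ΔDMR1-U2, with overlap, and their part in these sums was not tested.

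**Figure D2:**
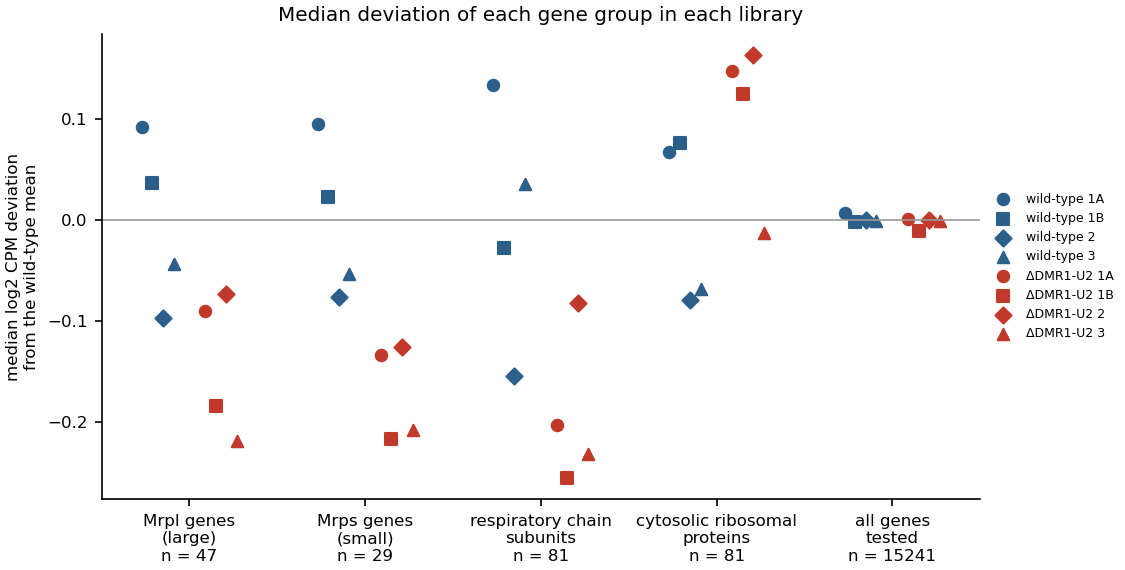
Median, over the genes of each group on the x axis, of the log2 CPM of a library minus the gene's wild-type mean (y axis), with 1 point a library (blue wild-type, red ΔDMR1-U2; the shape gives the library name). On this TMM-scaled scale, small subunit genes separated the groups while large subunit genes overlapped, and all genes tested lay near 0 in every library.

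Symbols do not always give the place of a protein. Mrps30 and Mrps18a are known to sit in the large subunit of the mammalian mitochondrial ribosome, and Mrps36 is known as a component of the 2-oxoglutarate dehydrogenase complex. With Mrps30 and Mrps18a counted as large and Mrps36 left out, the medians were -0.15 over 49 large and -0.16 over 26 small subunit genes. Mrps30 stood at 25.1, 26.3, 22.9 and 21.3 CPM in ΔDMR1-U2 (libraries 1A, 1B, 2 and 3 in turn) and at 24.1, 21.9, 22.1 and 23.4 CPM in wild-type, with overlap and a log2 fold change of 0.06 (SE 0.084). Mrps18a was at 16.6, 16.3, 16.9 and 17.7 CPM in ΔDMR1-U2 and 19.8, 18.3, 18.1 and 20.3 CPM in wild-type, without overlap, and its log2 fold change was -0.18 (SE 0.075). Mrps36 was at 6.03, 5.12, 5.61 and 5.03 CPM against 7.85, 6.62, 6.43 and 7.90 CPM, also without overlap, with a log2 fold change of -0.40 (SE 0.12). Neither passed the test over all genes, with edgeR adjusted p of 0.207 for Mrps18a and 0.107 for Mrps36.

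Mrps18a, Mrps18b and Mrps18c are paralogs of the bacterial protein S18, and reads can be shared between such copies. Mrps18c had a log2 fold change of -0.27 (SE 0.096), with 10.4 to 13.5 CPM in ΔDMR1-U2, against 14.1 to 15.0 CPM in wild-type. Mrps18b had a log2 fold change of 0.02 (SE 0.12), with 13.7 to 17.0 CPM and 11.6 to 17.1 CPM, and its sign turned without ΔDMR1-U2 library 1A, at -0.04, or without wild-type library 3, at -0.08. The paralogs thus spanned both a separated and an overlapping pattern, but no test compared them with each other.

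A split by descent, added after the values were known, set proteins with a bacterial counterpart against those gained in mitochondria. In the small subunit, by place, all 16 genes with a bacterial counterpart had negative values, with a median of -0.22, while the 10 others had a median of -0.14 and 9 negative values. Of the S18 paralogs, only Mrps18c was counted as having a counterpart, while Mrps18a and Mrps18b were counted as gained. Mrps18b, at 0.02, was the positive value among the 10, so the sign counts depend on this assignment. In the large subunit the medians were -0.14 over 30 genes with a counterpart and -0.15 over 19 without. No test was made of this split.

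Among large subunit genes with a role in the working ribosome, Mrpl12, on chromosome 11 at 120484613 to 120489065 (mm10), encodes the stalk protein that recruits translation factors. It stood at 25.6, 17.98, 14.6 and 17.7 CPM in ΔDMR1-U2 (libraries 1A, 1B, 2 and 3 in turn) and at 27.6, 22.8, 37.7 and 25.5 CPM in wild-type libraries 1A, 1B, 2 and 3. ΔDMR1-U2 library 1A lay above wild-type libraries 1B and 3, and wild-type library 2 was the highest of all, so the groups overlapped. The means were 18.97 ± 4.71 and 28.4 ± 6.51 CPM (SD, n = 4), a log2 fold change of -0.58 (SE 0.19), with an edgeR adjusted p of 0.1202. This was the largest fitted difference of the 76 members.

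Mrpl14, a protein at the face between the subunits, was at 5.36, 6.72, 7.46 and 6.56 CPM in ΔDMR1-U2 and 9.21, 9.11, 7.67 and 9.30 CPM in wild-type. The groups were apart, with wild-type library 2 close to ΔDMR1-U2 library 2. The log2 fold change was -0.43 (SE 0.12), and the edgeR adjusted p was 0.0945. Mrpl9, a protein with a bacterial counterpart, was at 47.8, 49.6, 47.9 and 50.02 CPM against 54.5, 58.2, 52.7 and 55.8 CPM. Its groups did not overlap although the log2 fold change was only -0.18 (SE 0.059), with an edgeR adjusted p of 0.129.

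Mrpl49 and Mrpl37 are large subunit proteins gained in mitochondria. Mrpl49, on chromosome 19 at 6053622 to 6057785 (mm10), stood at 22.9, 21.1, 26.1 and 24.1 CPM in ΔDMR1-U2 and at 33.7, 34.1, 29.5 and 29.3 CPM in wild-type. Every ΔDMR1-U2 library lay below every wild-type library. The means were 23.6 ± 2.08 and 31.6 ± 2.61 CPM (SD, n = 4), a log2 fold change of -0.42 (SE 0.089), and the edgeR adjusted p of 0.0505 was the smallest of the 76 members. Over 14 alternative analyses it ran from 0.00220 to 0.204, and 4 of them fell under the threshold.

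Mrpl37 was at 27.9, 27.3, 26.7 and 27.2 CPM in ΔDMR1-U2 and 35.9, 31.4, 33.6 and 30.4 CPM in wild-type. The ΔDMR1-U2 libraries were nearly equal and all below wild-type, with a log2 fold change of -0.27 (SE 0.073) and an edgeR adjusted p of 0.0891. Mrpl42, also gained in mitochondria and the most abundant member per length, was at 42.7, 35.3, 43.6 and 33.8 CPM against 49.9, 47.0, 47.2 and 44.6 CPM. Its groups did not overlap, and its log2 fold change was -0.28 (SE 0.092), with an edgeR adjusted p of 0.129.

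In the small subunit, Mrps7, Mrps10 and Mrps11 have bacterial counterparts, and the first is known for its place in the head, where the ribosomal RNA is organised. Mrps7, on chromosome 11 at 115603925 to 115608036 (mm10), stood at 30.03, 28.3, 35.1 and 32.8 CPM in ΔDMR1-U2 (libraries 1A, 1B, 2 and 3 in turn) and at 43.9, 42.3, 37.1 and 39.3 CPM in wild-type. The groups were apart, with library 2 of each genotype the closest to the other group. The means were 31.5 ± 3.005 and 40.7 ± 3.05 CPM (SD, n = 4), a log2 fold change of -0.37 (SE 0.087), with an edgeR adjusted p of 0.0652.

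Mrps10 was at 10.5, 8.64, 8.95 and 8.78 CPM in ΔDMR1-U2 and at 12.0, 11.7, 12.1 and 11.7 CPM in wild-type. The wild-type libraries were nearly equal, and ΔDMR1-U2 library 1A was the highest of its group but below all of them. The log2 fold change was -0.36 (SE 0.092), and the edgeR adjusted p was 0.0741. Mrps11 was at 6.38, 6.46, 8.35 and 6.86 CPM against 9.67, 9.41, 9.46 and 8.75 CPM, again without overlap, with a log2 fold change of -0.41 (SE 0.11) and an edgeR adjusted p of 0.0845. Exons of Mrps11 overlap those of Mrpl46 on the other strand, and reads of the pair cannot be told apart without knowing the strand setting of the counting.

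Mrps34, a small subunit protein gained in mitochondria, was at 19.8, 18.6, 21.96 and 19.2 CPM in ΔDMR1-U2 and 28.4, 23.7, 21.8 and 25.9 CPM in wild-type. ΔDMR1-U2 library 2 lay just above wild-type library 2, the only crossing between the groups. The log2 fold change was -0.32 (SE 0.096), with an edgeR adjusted p of 0.105.

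Mrpl23 lies on chromosome 7 at 142532686 to 142540747 (mm10), beside H19 and Igf2, on the chromosome that carries the deletion. It stood at 8.68, 9.18, 9.91 and 8.43 CPM in ΔDMR1-U2 and at 8.37, 8.27, 7.82 and 8.28 CPM in wild-type. Every ΔDMR1-U2 library was above every wild-type library, though library 3 by only a small margin, and no other member showed this. The means were 9.05 ± 0.65 and 8.18 ± 0.25 CPM (SD, n = 4). The log2 fold change of 0.14 (SE 0.093) did not pass the test, with an edgeR adjusted p of 0.388. Its neighbours H19 and Igf2 had log2 fold changes of 0.10 and 0.05 with overlapping groups.

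**Figure D3:**
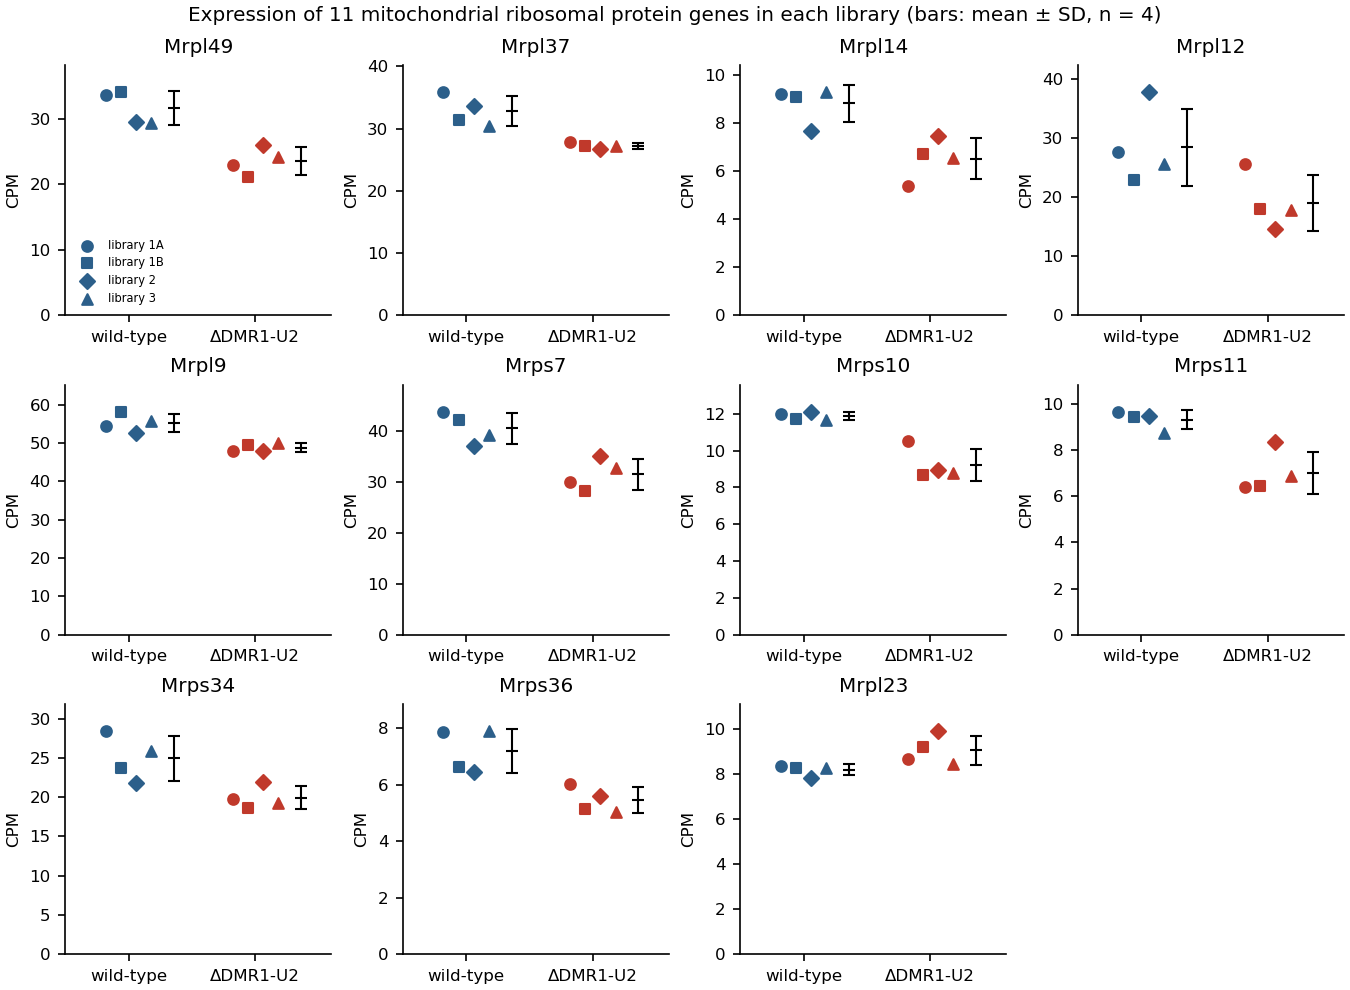
CPM (y axis, from 0) of 11 members in each wild-type (blue) and ΔDMR1-U2 (red) library, with bars for the mean ± SD of 4 libraries. The 5 members of each subunit with the smallest p are shown with Mrpl23, and 8 of those 10 had groups that did not overlap, Mrpl12 and Mrps34 being the exceptions. These 10 were picked by p in the same libraries, so separated groups follow largely from the choice. Of all 76 members, 15 were lower without overlap, beside 6.38% of all genes.

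Levels were compared between genes as CPM per kilobase of the principal annotated messenger RNA (GENCODE vM21). The median over all libraries was 13.7 for the members, 15.2 for the large and 11.6 for the small subunit, against 6.62 over all 12969 protein-coding genes tested. Before division by length, the medians were close, at 20.0 CPM for the members and 19.4 CPM over the protein-coding genes. The median messenger RNA length was 1284 bases for the members and 3066 bases over the protein-coding genes. In wild-type, Mrpl42 led with 70.8 ± 3.26 (SD, n = 4), followed by Mrpl33 with 60.4 ± 8.06, and Mrpl30 came next in the large subunit with 44.8 ± 3.31. Mrps21, at 47.3 ± 2.68, led the small subunit before Mrps34 at 27.2 ± 3.11 and Mrps28 at 26.2 ± 2.91. The lowest large subunit genes were Mrpl48 at 4.08 ± 0.41, Mrpl19 at 4.24 ± 0.40 and Mrpl47 at 4.90 ± 0.34, and the lowest small subunit genes were Mrps25 at 2.88 ± 0.14, Mrps6 at 4.17 ± 0.91 and Mrps26 at 4.67 ± 0.54. Of the 75 pairs of neighbours in this order, 65 differed by less than the SD between libraries, so the order within most of its length was not resolved. A gene's value here depends on which transcript is taken as principal: that of Mrps25 is 6073 bases long and that of Mrps21 is 488.

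Among these most and least abundant members, Mrps21 had a log2 fold change of -0.20 (SE 0.095) and Mrps28 one of -0.24 (SE 0.11), both with overlapping groups. Mrpl19 had -0.23 (SE 0.095) and Mrps6, with the fewest counts, -0.26 (SE 0.19). The values for Mrpl30, Mrpl47, Mrpl48, Mrps25 and Mrps26 lay between -0.13 and -0.05, and Mrpl33 had 0.08 (SE 0.11). High and low members thus both had mostly negative values, and Spearman's rho between the log2 fold change and level across the 76 genes was -0.09, against -0.17 across all protein-coding genes tested. With transcript length it was 0.46 across the 29 small and 0.0035 across the 47 large subunit genes, against 0.16 across all. Genes share their libraries here and are not independent replicates.

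**Figure D4:**
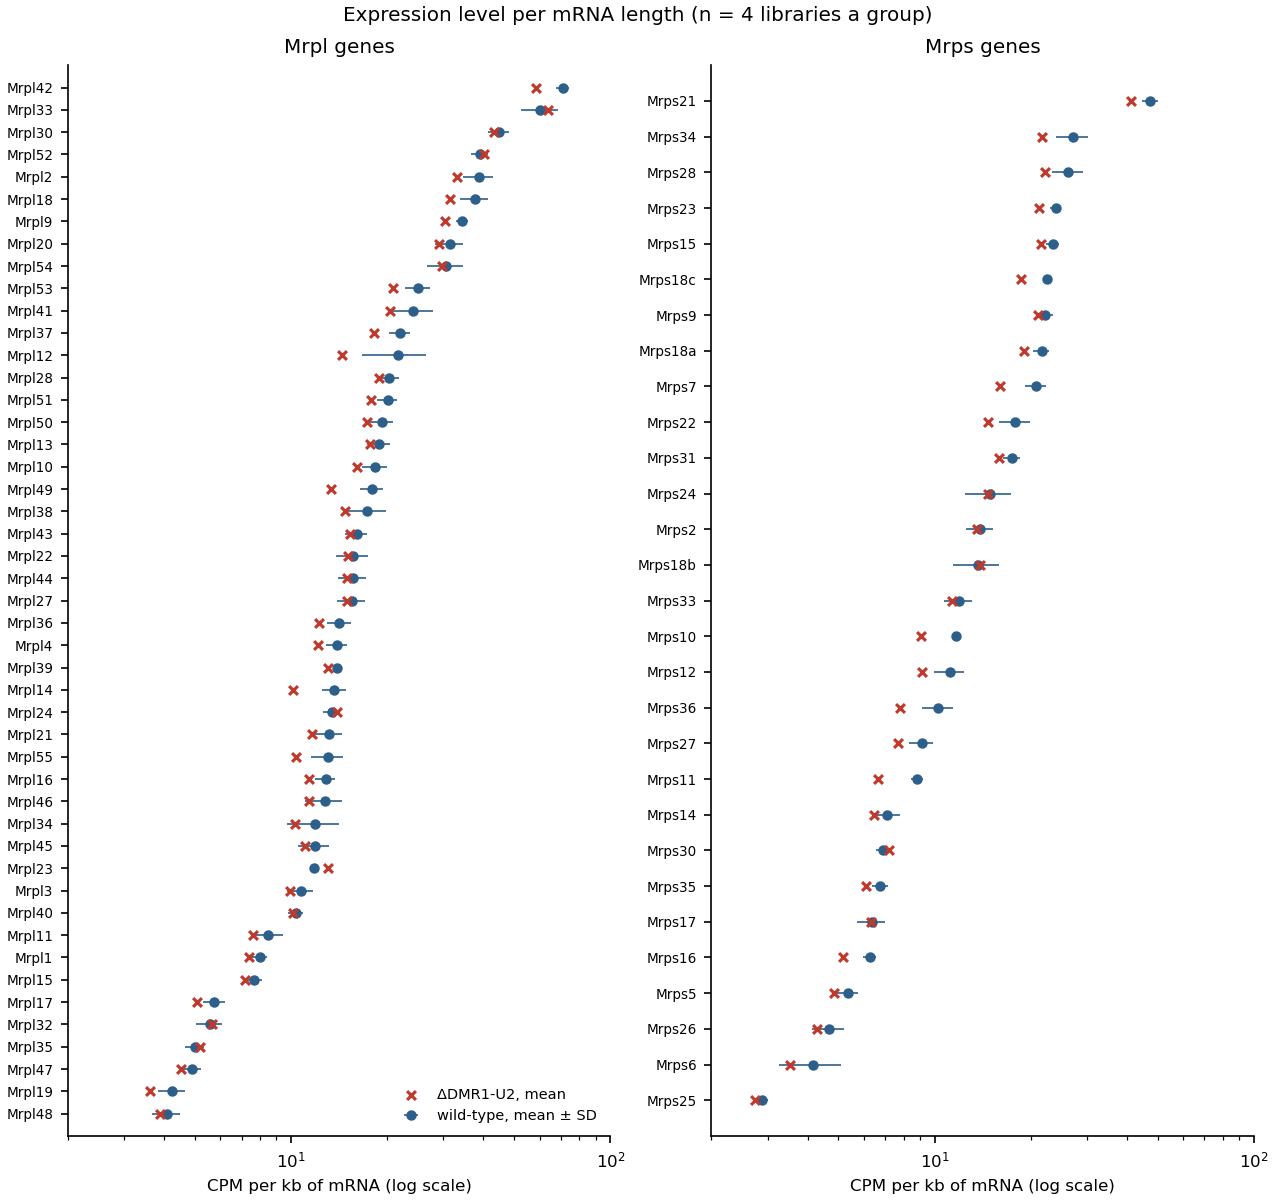
Level per length (x axis, CPM per kilobase of messenger RNA, log scale) of each Mrpl gene (left) and Mrps gene (right), with wild-type mean ± SD in blue and the ΔDMR1-U2 mean as a red cross, 4 libraries a group. Mrpl42 and Mrps21 head the 2 subunits, and the crosses lie left of the wild-type mean for most genes at every level.

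The promoter windows of RefSeq, from 250 bases before to 50 after the start, were found for 67 of the 76 members. There was none for Mrpl4, Mrpl13, Mrpl15, Mrpl19, Mrpl38, Mrpl54, Mrps28, Mrps34 and Mrps35. Members and tested genes were counted as genes with a match at any of their starts, while the 32851 windows in all were counted singly. The NRF1 letters (GCGC, any base, TGCGC) were found for 12 members, 17.9%, against 4.603% of 32851 windows in all and 10.2% of 10552 tested genes. The ETS letters CCGGAAG were found for 24 members, 35.8%, against 8.86% and 17.5%. For YY1, AAGATGGC was found for 12 members, 17.9%, against 2.75% and 4.56%. A longer form ending in GCG was searched first and was shortened after the sequences had been seen. The SP letters GGGCGG were found for 33 members, 49.3%, against 35.7% and 66.0%. Both strands were searched, and ETS and SP matches overlapped each other in 2 windows. Large and small subunit genes both held each motif, with YY1 letters in 6 of 41 and 6 of 26 and NRF1 letters in 9 of 41 and 3 of 26.

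Members with the YY1 letters, Mrpl49 and Mrps7 among them, had a median of -0.26 on the log2 scale, and members with a window but without them had -0.13. For NRF1 letters the medians with and without were -0.11 and -0.16, for ETS letters -0.18 and -0.13, and for SP letters -0.17 and -0.13. These are descriptions of small groups chosen with the values known, and no test was made.

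Starts of members often faced another gene. In 17 of 76, 22.4%, a protein-coding gene on the opposite strand began within 1000 bases upstream, against 9.14% of protein-coding genes tested. Of these partners 16 were tested, with edgeR adjusted p of 0.119 or more and a median log2 fold change of -0.04. The 16 members that face these tested partners had a median of -0.20. Mrpl49 starts 59 bases from Fau, a cytosolic ribosomal protein gene, which had 0.07 (SE 0.072). Mrps12, a member chosen here for its partner, starts 172 bases from Sars2, the mitochondrial seryl-tRNA synthetase, and the pair had log2 fold changes of -0.29 and -0.34. Exons on the other strand overlapped those of 27 members, 35.5%, against 30.5% of protein-coding genes tested. They include Mrpl49 (with Syvn1), Mrpl12 (Gm16755), Mrpl14 (Tmem63b), Mrpl9 (Oaz3), Mrps7 (Gga3 and Mif4gd) and Mrps34 (Mapk8ip3), whose counts may hold reads of the partner. Among members without such overlap the medians were -0.11 for large and -0.18 for small subunit genes, a difference of 0.065.

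Other parts of mitochondrial translation were described from lists chosen with earlier results known. The 7 proteins of the mitochondrial ribosome that bear other symbols all had negative values, with a median of -0.15 and 0 called by edgeR; those with the smallest p were Ptcd3 at -0.18 (SE 0.073) and Ict1, a peptide release factor built into the large subunit, at -0.20 (SE 0.082). Of 23 factors that assemble the ribosome 0 were called, with a median of -0.03, and Ftsj2, a methyltransferase for its RNA, had -0.55 (SE 0.13) while Mterfd2 had 0.27 (SE 0.094). At an unadjusted p under 0.05, edgeR had 2 of the 7 and Ftsj2 of the 23 lower and Mterfd2 higher. Over all genes, 10.9% were lower and 10.4% higher at that p. DESeq2 called Ftsj2 lower, beside 3.37% of all genes. Of 14 translation factors, 1 was called lower by edgeR, beside 0.617% of all genes. This was Tufm, the elongation factor that delivers aminoacyl-tRNAs, at 17.8, 18.7, 18.9 and 19.6 CPM in ΔDMR1-U2 and 26.2, 22.7, 24.1 and 25.01 CPM in wild-type. Its groups were well apart, with a log2 fold change of -0.39 (SE 0.075) and an edgeR adjusted p of 0.0427. The call was lost on leaving out any 1 library except ΔDMR1-U2 library 2, with adjusted p up to 0.135, and without ΔDMR1-U2 libraries 1A and 1B together, with 0.170. Tsfm, which recharges Tufm, had -0.37 (SE 0.13) with overlapping groups.

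Of 19 mitochondrial tRNA synthetases 0 were called by edgeR, with a median of -0.07. Those with the smallest p were Sars2 at -0.34 (SE 0.11) and Tars2 at 0.11 (SE 0.069). The 8 genes of mitochondrial DNA copying and transcription had a median of 0.06 with 6 positive and 0 called, led by Polg2 at 0.21 (SE 0.090) and Polg at 0.16 (SE 0.088). The 10 regulators of mitochondrial biogenesis were divided into 5 positive and 5 negative with 0 called, and those with the smallest p were Myc at 0.27 (SE 0.14) and Gabpb1 at -0.16 (SE 0.096). At an unadjusted p under 0.05, edgeR had 1 tRNA synthetase lower, Sars2, and 1 gene of mitochondrial DNA copying higher, Polg2, and 0 regulators. Over all genes, 10.9% were lower and 10.4% higher at that p. DESeq2 called none of these 3 lists.

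The products of mitochondrial translation join nuclear-encoded subunits in the respiratory chain. Of 81 such nuclear genes tested, 77 had negative values, with a median of -0.20. At an unadjusted p under 0.05, edgeR had 44 lower and 1 higher, beside 10.9% and 10.4% of all genes. DESeq2 called 16 lower and 1 higher, beside 3.37% and 3.07%. By edgeR, 4 were called lower, beside the 0.617% of all genes given above. They were Ndufa8 of complex I with 39.9 ± 2.23 CPM in ΔDMR1-U2 and 52.8 ± 2.23 in wild-type (SD, n = 4), Cyc1 of complex III with 121.6 ± 6.997 and 159.6 ± 14.0, and the ATP synthase genes Atp5g3 with 251.8 ± 14.2 and 321.1 ± 17.7 and Atp5g1 with 80.1 ± 6.40 and 105.003 ± 8.96. Their log2 fold changes were -0.41, -0.39, -0.35 and -0.39. The calls of Cyc1, Atp5g3 and Atp5g1 were likewise lost on leaving out any 1 library except ΔDMR1-U2 library 2. That of Ndufa8 was lost without ΔDMR1-U2 library 3 or any wild-type library. Scaled by total library size, Atp5g3 lost its call, with an edgeR adjusted p of 0.0530, while Cyc1, Atp5g1 and Ndufa8 kept theirs. Without ΔDMR1-U2 libraries 1A and 1B together all 4 calls were lost, with edgeR adjusted p of 0.117 to 0.185. By library, the medians of this list were -0.20, -0.26, -0.08 and -0.23 in ΔDMR1-U2 (libraries 1A, 1B, 2 and 3 in turn) and 0.13, -0.03, -0.15 and 0.04 in wild-type, so ΔDMR1-U2 library 2 lay above wild-type library 2, as it did for the large subunit of the mitochondrial ribosome.

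Proteins of the cytosolic ribosome went the other way in sign. Of 81 genes tested, 66 had positive values, with a median of 0.11, and 0 were called by edgeR. At an unadjusted p under 0.05, edgeR had 13 higher and 4 lower, beside 10.4% and 10.9% of all genes. DESeq2 called 2 of them higher, beside 3.07% of all genes with an adjusted p. These were Rpl22 and Rpl5, which had 0.25 (SE 0.062) and 0.24 (SE 0.075). Rps27 had 0.86 (SE 0.23), from levels of 1.41 ± 0.13 and 0.79 ± 0.21 CPM (SD, n = 4), and the many copies of such genes in the genome can share their reads. By library, the medians were 0.15, 0.13, 0.16 and -0.01 in ΔDMR1-U2 (libraries 1A, 1B, 2 and 3 in turn) and 0.07, 0.08, -0.08 and -0.07 in wild-type. ΔDMR1-U2 library 3 lay below wild-type libraries 1A and 1B, so this list overlapped between the groups. The difference between the 2 kinds of ribosome was not tested.

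**Figure D5:**
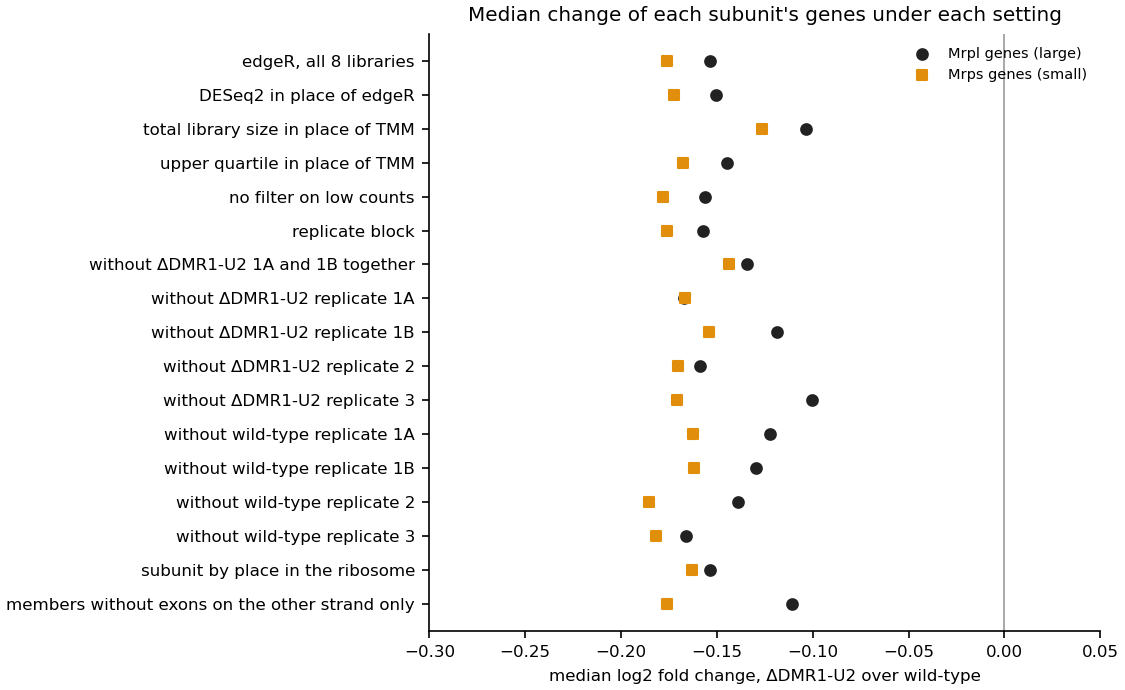
Median log2 fold change (x axis) of the Mrpl genes (black circles) and Mrps genes (orange squares) under each analysis setting (y axis). All medians were below 0, and the gap between the subunits was widest without ΔDMR1-U2 library 3, at 0.07.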

How the data were processed

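Skeletal muscle RNA of 4 ΔDMR1-U2 and 4 wild-type libraries was analysed from 1 table of 23336 genes. The submitters' processing notes name build mm10, the counter HTSeq 0.5.4p3, TopHat2 2.0.9 with Bowtie2 2.1.0, FastQC 0.10.1, and DESeq2 1.4.5. Their settings, the strand of the counting and the annotation: not given in the sources used here. Per the file headers, the table holds a raw count for each gene and library. The authors also deposited mean normalised counts (a signal), a ratio of wild-type over ΔDMR1-U2, its log2, and a p-value and adjusted p-value.

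Counts were tested with edgeR 4.0.16 (R 4.3.3): filterByExpr at a minimum count of 10, TMM scaling, and the quasi-likelihood test with Benjamini-Hochberg adjustment over 15241 genes, called at 0.05. Standard errors came from the F statistic. Log2 CPM used an offset of 0.5. The code was tested on simulated data. Alternatives were DESeq2 1.42.0, other scalings, no filter, a replicate block, other subunit assignments and leaving out libraries.

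Members and lists were chosen with earlier results of these data known. Named members were those called, the 5 of each subunit with the smallest p, the 3 highest and 3 lowest per length in each subunit, those whose symbol and place differ and their paralogs, Mrpl12 and Mrpl23; of other lists, the called genes and the 2 with the smallest p.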

Additional observations from a re-analysis of the deposited data

Results flagged for a closer look

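Single libraries stood away from the other 3 of their group, by Dixon's ratio of the gap to the range, in 2 of 58 groups examined among the named members and subunit sums, where chance flags about 1 in 20. Mrpl14 in wild-type library 2 was at 7.67 CPM, against 9.11 to 9.30 CPM in the other wild-type libraries. Mrps10 in ΔDMR1-U2 library 1A was at 10.5 CPM, against 8.64 to 8.95 CPM in the other ΔDMR1-U2 libraries. Both values lay towards the other group without crossing it.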

How the results depend on the processing

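The number of genes called over all genes, 172, was 962 with DESeq2, 13 with a replicate block, 16 without ΔDMR1-U2 libraries 1A and 1B, and 7 to 631 without 1 library. Library names did not pair the groups: deviations of same-named libraries correlated at -0.22 to -0.06. The replicate block also ended the calls of Tufm, Ndufa8, Cyc1, Atp5g3 and Atp5g1, with edgeR adjusted p of 0.0925 to 0.128. Members called lower were 7 with DESeq2, 1 with the upper quartile, 1 without the filter and 0 to 3 without 1 library. Of all genes, these fits called 6.44%, 1.21%, 1.19% and 0.0454% to 4.10% in either direction. Members lower at an unadjusted p under 0.05 were 13 by total library size and 15 to 28 without 1 library. The share of all genes at that p was not computed under these settings. The large minus small difference was 0.065 among members without exons on the other strand, and -0.00038 to 0.070 without 1 library. Signs turned for Mrpl30 by total library size (0.0028), and without ΔDMR1-U2 libraries 1A and 1B for Mrpl48 (0.0033), Mrps18b (-0.058) and Mrps30 (-0.053). Without 1 library, Mrps18b ran from -0.077 to 0.11. Both subunit medians stayed negative in every alternative run. The cause of these shifts was not tested. Member counts as low as 38 limit the precision for genes such as Mrps6.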
